A study of Panax japonicus with 5 samples.

Results

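This account concerns 4 unigenes that the study annotated as cytochrome P450 (CYP450) enzymes, TR54948|c1_g1, TR64514|c1_g1, TR63168|c1_g4 and TR65789|c1_g1. They were chosen by their measured levels, as the most abundant P450 unigenes in the set that the study displayed, with CYP716A52v2 set aside by name, and they are 4 of 135235 unigenes in the assembly. A unigene is a gene of the de novo assembly program Trinity and can hold several contigs, the assembled transcripts. Together the 4 held 17 of 206610 contigs. All libraries came from Panax japonicus, a medicinal plant with a bamboo-like rhizome, and from 1 untreated plant aged 7 years that grew outdoors. Its aerial tissues were flower and leaf. Below ground, rhizome_Y was the young end of the rhizome close to the stem, rhizome_O an older stretch further from it, and secRoot a secondary root. Each tissue had 1 library. No difference between tissues therefore had a replicate check, and no test between tissues was made.

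Cytochrome P450 enzymes are membrane-bound heme proteins that insert an oxygen atom into small molecules. Plants carry large families of them. In the triterpene saponins (ginsenosides) of Panax, an oxidosqualene cyclase first folds the carbon skeleton, P450 enzymes then oxidize it, and glycosyltransferases add sugars. Beta-amyrin synthase makes the oleanane skeleton and is represented here by TR8430|c0_g1. CYP716A52v2, represented by TR45427|c0_g1, oxidizes beta-amyrin towards oleanolic acid in P. ginseng. No substrate of the 4 unigenes was looked up here, and their P450 label, which is the annotation of the study, was not checked against sequence.

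Total expected counts were between 2403221 in flower and 4920387 in secRoot, with 4614642 in leaf. Levels are given as FPKM (fragments per kilobase of transcript, scaled to the mapped fragments of the library), summed over the contigs of a unigene, so that levels of different unigenes can be set side by side within a library. Ranges in parentheses are exact 95% intervals of the counts, rescaled to FPKM, and cover counting error only. The FPKM per count was held fixed in them. For unigenes with several contigs of unlike length they are therefore approximate. They leave out the variation between plants and the error of dividing reads among contigs or unigenes that share sequence. The leaf label was checked with 2 enzymes of the Calvin cycle. The summed FPKM of phosphoribulokinase was 146.81 in leaf and at most 26.74 elsewhere, and that of sedoheptulose-bisphosphatase was 217.67 in leaf and at most 43.56 elsewhere. The leaf library stood apart in a wider sense. When 2953 unigenes that reached an FPKM of 50 in every tissue but leaf were examined, 2864 (97.0%) had a leaf level below 5% of their mean over those tissues. The leaf values of the P450 unigenes were 0.0506% to 0.994% of that mean. A leaf level below 5% was thus shared with nearly all unigenes abundant in every other tissue. TR64514|c1_g1, at 43.42 in flower, was just outside that set. How many of the set were as low in leaf as the P450 unigenes was not computed.

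The 4 P450 unigenes did not share a highest tissue. TR54948|c1_g1 was highest in flower, TR65789|c1_g1 in rhizome_Y, and both TR64514|c1_g1 and, by a small margin, TR63168|c1_g4 in secRoot. Their highest FPKM values were close together, at 376.61, 266.51, 309.92 and 303.28 in that order. These levels chose the unigenes and are given as a description. Flower was highest for 1 of the 4, against 21.5% of the 7004 unigenes that had 500 or more counts in all. Rhizome_Y was highest for 1, against 15.0%, and secRoot for 2, against 23.9%. The secRoot lead of TR63168|c1_g4, 1.09-fold (1.01 to 1.17) over rhizome_Y, did not hold in every scale. Leaf and rhizome_O were highest for 0, against 21.0% and 18.6%. The ranked list behind the choice was not rebuilt here. Which of the 4 lay nearest its edge is therefore not known. By highest value the lowest was TR65789|c1_g1, with 266.51. By FPKM summed over the libraries it was TR64514|c1_g1, at 605.82 against 615.09 for TR65789|c1_g1. CYP716A52v2, set apart by name, reached 242.3 in rhizome_Y. TR65789|c1_g2, described below, reached 266.23, and whether it was in the displayed set was not checked.

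**Figure D1:**
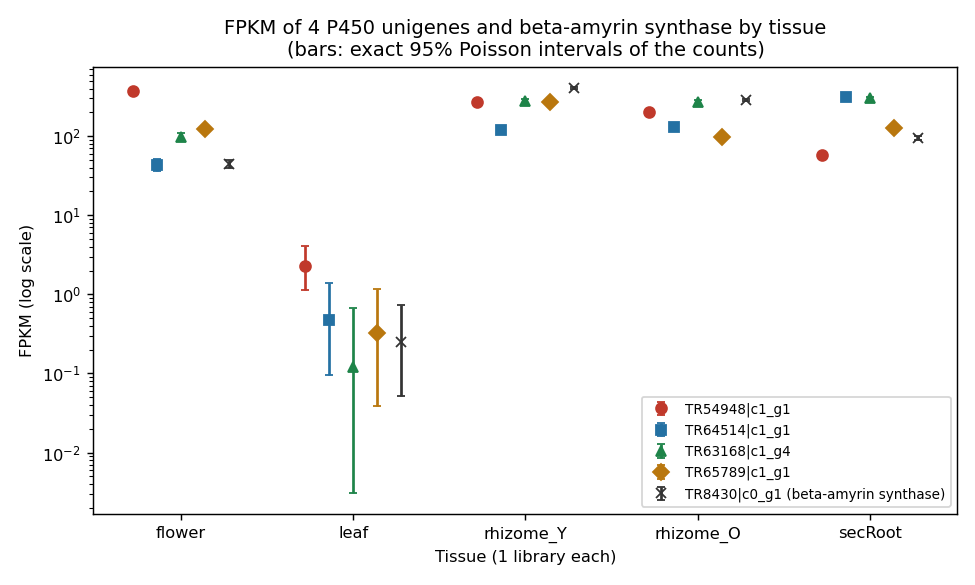
FPKM on a log axis of the 4 P450 unigenes and beta-amyrin synthase in the 5 tissues, 1 library each, with exact 95% Poisson intervals of the counts. TR54948|c1_g1 lies at the top in flower (376.61), beta-amyrin synthase in rhizome_Y (403.9), and TR64514|c1_g1 and TR63168|c1_g4 in secRoot (309.92 and 303.28), while all of them rest on 1 to 11 counts in leaf.

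TR54948|c1_g1 had its highest level in flower. FPKM values were 376.61 for flower, 270.87 for rhizome_Y, 201.01 for rhizome_O, 57.29 for secRoot and 2.25 for leaf, on 1253, 1060, 948, 393 and 11 counts. Every step down this order was larger than counting error. Flower was 1.39-fold (1.28 to 1.51) above rhizome_Y, rhizome_Y was 1.35-fold (1.23 to 1.47) above rhizome_O, and rhizome_O was 3.51-fold (3.12 to 3.96) above secRoot. In flower it ranked 476 of all unigenes by FPKM and in secRoot 4492.

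The contigs of TR54948|c1_g1 did not all follow this order. There were 5, of 702 to 1910 bp. Contig i4 (1888 bp) carried the flower level, with an FPKM of 137.21 there, while rhizome_Y had 62.02, rhizome_O 56.93 and secRoot 18.35, so that flower was 2.21-fold (1.92 to 2.55) above rhizome_Y. Contigs i1 (1290 bp) and i2 (702 bp) were also highest in flower, by 1.78-fold (1.44 to 2.20) and 1.61-fold (1.09 to 2.41). Contig i3, which at 1910 bp was nearly as long as i4, had 77.45 in rhizome_Y and 63.74 in flower and was 1.22-fold (1.04 to 1.42) higher in rhizome_Y. For contig i5 (1229 bp) rhizome_Y was 1.23-fold (0.962 to 1.56) above flower, which was within counting error. The level of i3 over i4 was thus 0.465 (0.4005 to 0.538) for flower, 1.25 (1.07 to 1.46) for rhizome_Y, 0.905 (0.773 to 1.06) for rhizome_O and 0.585 (0.448 to 0.760) for secRoot. As the reads were divided between them, the higher of these long contigs therefore changed between flower and rhizome_Y. The error of that division is not in the intervals.

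TR65789|c1_g1 had its highest level in the young rhizome, where TR63168|c1_g4 and TR54948|c1_g1 were as high. FPKM values were 266.51 for rhizome_Y, 128.45 for secRoot, 122.71 for flower, 97.10 for rhizome_O and 0.32 for leaf, on 936, 785, 301, 407 and 2 counts. Rhizome_Y stood 2.07-fold (1.89 to 2.28) above secRoot and 2.74-fold (2.44 to 3.09) above rhizome_O. In FPKM, secRoot and flower did not differ beyond counting error, at 1.05-fold (0.915 to 1.20). Flower was 1.26-fold (1.09 to 1.47) above rhizome_O in FPKM. In CPM (counts scaled to the library total), where length is not divided out, secRoot had 159.5, flower 125.2 and rhizome_O 120.3. Flower was then further below secRoot and closer to rhizome_O. No interval was computed for these pairs in CPM, and both statements are limited to FPKM. In flower, contig i3 (765 bp) took 26.6% of the counts and 43.9% of the FPKM.

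Its 4 contigs fell into pairs with unlike profiles. Contigs i1 (1494 bp) and i4 (1482 bp) had 104.81 and 89.36 for rhizome_Y, 48.50 and 41.31 for secRoot, 37.13 and 28.82 for rhizome_O, and only 8.65 and 5.30 for flower. Each was 2.16-fold higher in rhizome_Y than in secRoot (1.86 to 2.51 and 1.84 to 2.55). Contigs i2 (1482 bp) and i3 (765 bp) were instead highest in flower, at 54.87 and 53.89, and flower was 1.56-fold (1.24 to 1.97) and 1.45-fold (1.03 to 2.04) above rhizome_Y. In flower i2 took 58.5% and i3 26.6% of the counts of the unigene, against 14.2% and 6.94% in rhizome_Y. The ratio of i1 to i2 moved from 0.158 (0.102 to 0.236) in flower to 2.98 (2.44 to 3.65) in rhizome_Y, with 2.09 (1.60 to 2.77) in rhizome_O and 2.26 (1.85 to 2.77) in secRoot. A profile distance was computed as the absolute differences between the shares that the 5 libraries took of the FPKM, summed and divided by 2, so that 0 means the same profile. It was 0.0241 between i1 and i4 and 0.0521 between i2 and i3, but 0.381 between i1 and i2. Contigs of 1 unigene can be isoforms, alleles, close copies or fragments, and which of these they are was not tested.

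**Figure D2:**
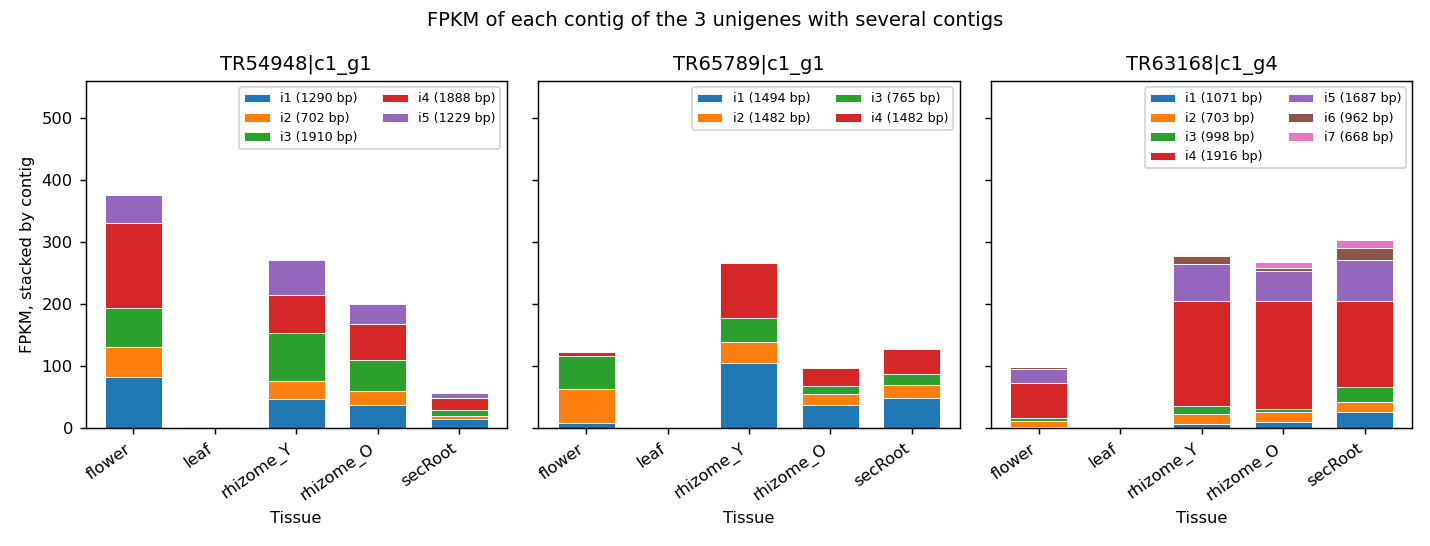
FPKM by tissue (1 library each) of the 3 P450 unigenes with several contigs, stacked by contig, with contig lengths in bp. In TR65789|c1_g1 the flower bar is made mostly of i2 and i3 (54.87 and 53.89) and the rhizome_Y bar mostly of i1 and i4 (104.81 and 89.36), and in TR54948|c1_g1 contig i4 falls from 137.21 in flower to 62.02 in rhizome_Y.

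TR64514|c1_g1 was the P450 unigene with the steepest gradient towards the secondary root. It had 1 contig of 1537 bp, so its values are not a sum over contigs. FPKM values were 309.92 for secRoot, 131.15 for rhizome_O, 120.86 for rhizome_Y, 43.42 for flower and 0.47 for leaf, on 2117, 616, 476, 145 and 3 counts. SecRoot was 2.36-fold (2.16 to 2.59) above rhizome_O. The rhizome libraries did not differ beyond counting error, at 1.09-fold (0.961 to 1.23), and rhizome_Y was 2.78-fold (2.31 to 3.38) above flower. Of its FPKM added over the libraries, 51.2% lay in secRoot.

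TR63168|c1_g4 was nearly level over the underground tissues. FPKM values were 303.28 for secRoot, 279.18 for rhizome_Y, 268.02 for rhizome_O, 98.81 for flower and 0.12 for leaf, on 2081, 1213, 1398, 359 and 1 counts. SecRoot was 1.09-fold (1.01 to 1.17) above rhizome_Y, and rhizome_Y was 1.04-fold (0.964 to 1.13) above rhizome_O, which was within counting error. The small lead of secRoot did not hold in every scale. It was -0.016 on the log2 scale in CPM (counts scaled to the library total), where length is not divided out, and -0.29 for the contig with the most counts, so no highest tissue was resolved among the underground libraries. All of these were well above flower, and the closest, rhizome_O, was 2.71-fold (2.41 to 3.05) above it.

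The 7 contigs of TR63168|c1_g4, of 668 to 1916 bp, differed in the same respect. The longest, i4, took 57.8% to 74.6% of the counts outside leaf and had 174.44 for rhizome_O, 168.74 for rhizome_Y, 138.23 for secRoot and 56.70 for flower. Its rhizome_O level was 1.03-fold (0.943 to 1.13) that of rhizome_Y. Contig i5 (1687 bp) had 66.59 in secRoot and 59.35 in rhizome_Y, a 1.12-fold difference (0.964 to 1.31) within counting error. A lead of secRoot beyond counting error was seen in shorter contigs of lower level, i1 (1071 bp) at 26.66 and 2.77-fold (1.85 to 4.29) above rhizome_O, i3 (998 bp) at 23.69 and 1.73-fold (1.16 to 2.65) above rhizome_Y, and i6 (962 bp) at 20.24 and 1.61-fold (1.04 to 2.55) above rhizome_Y. Contigs i2 and i7 (703 and 668 bp) reached 16.52 and 11.74, and their highest tissue was within counting error of the next.

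Over the 4 unigenes, 16 of 17 contigs had at least 100 counts in all. Of these, 10 shared the highest tissue of their unigene and 6 had another. The 6 were among 15 contigs of the unigenes with several contigs, and over all such unigenes another highest tissue was found for 21.2% of 23829 contigs at the same minimum. The other tissue was beyond counting error for 3 of the 6, namely i3 of TR54948|c1_g1 and i2 and i3 of TR65789|c1_g1. The share of such contigs over all unigenes was not computed. Among the 15 contigs, flower was the highest tissue of 5, secRoot of 4, rhizome_Y of 4, rhizome_O of 2 and leaf of 0. Over the 23829 contigs it was flower for 5293, secRoot for 5156, rhizome_Y for 3411, rhizome_O for 4704 and leaf for 5265.

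Beside beta-amyrin synthase, the P450 unigenes changed places from tissue to tissue. The FPKM of TR8430|c0_g1 was 403.90 for rhizome_Y, 287.45 for rhizome_O, 94.49 for secRoot, 44.27 for flower and 0.25 for leaf, on 2960, 2512, 1201, 275 and 3 counts. In both rhizome libraries it was above each of the 4 P450 unigenes taken alone. With all other unigenes of their Trinity components added, short ones included, it was below 3 of them in at least 1 rhizome library. With unigenes of at least 600 bp alone, none of the 4 exceeded it there by more than 0.038 on the log2 scale. In flower 3 of the 4 were above it, and in secRoot another set of 3.

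In flower, TR54948|c1_g1 was 8.51-fold (7.46 to 9.73) above beta-amyrin synthase, TR65789|c1_g1 2.77-fold (2.35 to 3.28) and TR63168|c1_g4 2.23-fold (1.90 to 2.62). TR64514|c1_g1 was level with it there, at a ratio of 0.981 (0.796 to 1.20). In rhizome_Y the ratios of TR63168|c1_g4, TR54948|c1_g1 and TR65789|c1_g1 were alike, at 0.691 (0.646 to 0.739), 0.671 (0.625 to 0.720) and 0.660 (0.612 to 0.710), and these P450 unigenes did not differ from their neighbours in that order beyond counting error. TR64514|c1_g1 was lower, at 0.299 (0.271 to 0.330).

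In rhizome_O the ratios spread out. TR63168|c1_g4 was at 0.932 (0.873 to 0.996) of beta-amyrin synthase, TR54948|c1_g1 at 0.699 (0.648 to 0.754), TR64514|c1_g1 at 0.456 (0.417 to 0.498) and TR65789|c1_g1 at 0.338 (0.303 to 0.375). In secRoot, TR64514|c1_g1 and TR63168|c1_g4 were 3.28-fold (3.05 to 3.52) and 3.21-fold (2.99 to 3.45) above it and did not differ from each other beyond counting error, at 1.02-fold (0.961 to 1.09). TR65789|c1_g1 was 1.36-fold (1.24 to 1.49) above it, and TR54948|c1_g1 was below it, at 0.606 (0.540 to 0.680). In leaf the comparison rested on 1 to 11 counts against 3, and only TR54948|c1_g1, with a ratio of 9.0 (2.38 to 50.2), had an interval above 1.

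**Figure D3:**
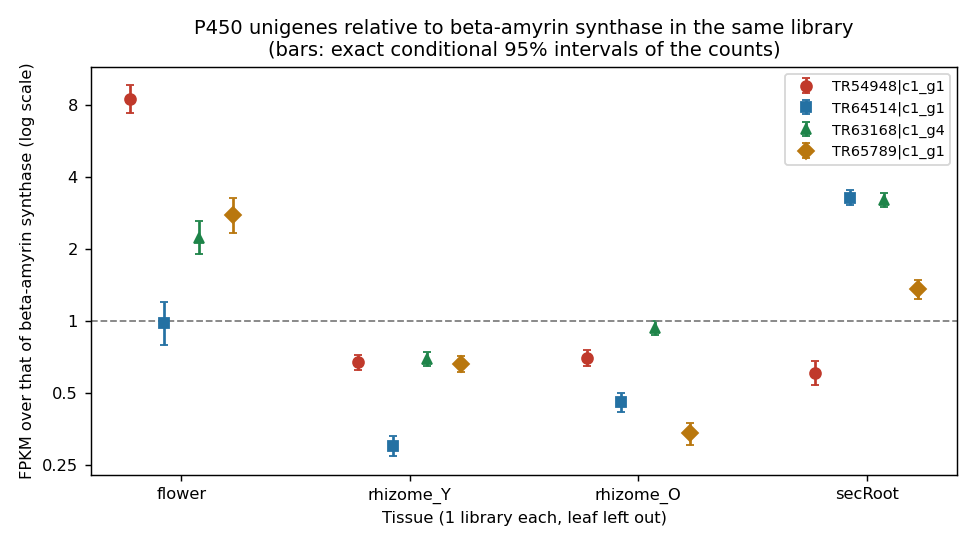
FPKM of each P450 unigene divided by that of beta-amyrin synthase in the same library, on a log axis, with exact conditional 95% intervals of the counts and leaf left out. The points lie under the dashed line of equal levels in both rhizome libraries (0.299 to 0.932), while TR54948|c1_g1 reaches 8.51 in flower and TR64514|c1_g1 3.28 in secRoot.

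These ratios depended on what was added together. With all unigenes of its component added, TR65789|c1_g1 turned from below to above beta-amyrin synthase in rhizome_Y (from -0.60 to 1.25 on the log2 scale) and in rhizome_O (to 0.45). TR64514|c1_g1 likewise turned in rhizome_Y (0.23) and in rhizome_O (0.27), and TR63168|c1_g4 in rhizome_O (0.30). With only component unigenes of at least 600 bp added, TR64514|c1_g1 stayed below in rhizome_Y (-0.37) and rhizome_O (-0.26), as did TR65789|c1_g1 in rhizome_O (-0.26). TR65789|c1_g1 in rhizome_Y (0.018) and TR63168|c1_g4 in rhizome_O (0.038) were then nearly level with beta-amyrin synthase. In rhizome_Y, TR65789|c0_g1 and TR65789|c0_g2, of 253 and 259 bp, had 236.47 and 252.41 on 70 and 79 counts. With the contig of most counts alone, TR65789|c1_g1 fell from above to below beta-amyrin synthase in flower (-2.36 on the log2 scale) and in secRoot (-0.96), the contig being i1, which took 9.30% of its counts in flower. In counts that were not divided by length it was also below in secRoot (-0.61). The summed FPKM of the 4 P450 unigenes was 641.55 for flower, 937.42 for rhizome_Y, 697.28 for rhizome_O, 798.94 for secRoot and 3.16 for leaf. This sum was 14.5 times the level of beta-amyrin synthase for flower, 2.32 times for rhizome_Y, 2.43 times for rhizome_O and 8.46 times for secRoot. The 4 were chosen by these levels and had different highest tissues. That their sum was flatter than 1 unigene is therefore not read as a result.

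CYP716A52v2 had a profile close to that of beta-amyrin synthase, at a distance of 0.0758. Its distances from the 4 P450 unigenes were 0.210 for TR65789|c1_g1, 0.229 for TR63168|c1_g4, 0.323 for TR54948|c1_g1 and 0.407 for TR64514|c1_g1, within the range of the 4 among themselves. The distances of the 4 P450 unigenes from beta-amyrin synthase were 0.241 for TR65789|c1_g1, 0.256 for TR63168|c1_g4, 0.364 for TR54948|c1_g1 and 0.417 for TR64514|c1_g1. Among themselves they ranged from 0.193, between TR64514|c1_g1 and TR63168|c1_g4, to 0.448, between TR54948|c1_g1 and TR64514|c1_g1. In rhizome_Y, 3 of the 4 were slightly above CYP716A52v2, by 1.10-fold (1.01 to 1.20) for TR65789|c1_g1 to 1.15-fold (1.06 to 1.25) for TR63168|c1_g4, and in secRoot TR64514|c1_g1 was 6.35-fold (5.70 to 7.10) above it. CYP716A53v2 (TR49263|c0_g1), which hydroxylates protopanaxadiol in P. ginseng, was lower than all of them outside leaf, with a highest FPKM of 14.13 in flower and 94 counts in all.

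Between pairs of tissues the 4 unigenes were again unlike. Rhizome_Y was over 2-fold above secRoot for 2 of 4, TR54948|c1_g1 at 4.73-fold (4.21 to 5.32) and TR65789|c1_g1 at 2.07-fold, against 6.62% of 8642 unigenes with at least 100 counts in either library. The reverse held for TR64514|c1_g1 alone, at a ratio of rhizome_Y to secRoot of 0.390 (0.352 to 0.431), against 10.4% of those unigenes. Rhizome_Y was over 2-fold above rhizome_O for TR65789|c1_g1 alone, against 6.03% of 6986 unigenes, and the reverse held for 0 of 4, against 4.88%. Flower was over 2-fold above rhizome_Y for 0 of 4, against 16.1% of 6566 unigenes. Rhizome_Y was over 2-fold above flower for 3 of 4, against 17.8%, with ratios of flower to rhizome_Y of 0.359 (0.296 to 0.434) for TR64514|c1_g1, 0.354 (0.314 to 0.398) for TR63168|c1_g4 and 0.460 (0.403 to 0.525) for TR65789|c1_g1. The unigenes were chosen on these same levels, so nothing is read from the counts of members.

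The highest tissues also depended on whether leaf entered the scaling between libraries. Scaling by TMM (trimmed mean of M values) over all libraries gave leaf a factor of 0.0651 and flower one of 5.23. It shifted every log2 ratio of rhizome_Y to rhizome_O by -2.72, of flower to rhizome_Y by -0.85 and of rhizome_Y to secRoot by -0.34, and made all 4 P450 unigenes highest in rhizome_O. The unigenes of all kinds over 2-fold higher in rhizome_Y than in rhizome_O and the reverse then numbered 32 and 6848, in place of 421 and 341. For rhizome_Y against secRoot they numbered 369 and 1590, in place of 572 and 901, and for flower against rhizome_Y 612 and 3076, in place of 1059 and 1170. With leaf left out of TMM the shifts were 0.13, -0.13 and 0.0078, the rhizome counts were 543 and 245, and no highest tissue of the 4 changed. The ratio of rhizome_Y to rhizome_O of TR64514|c1_g1, which was within counting error, changed its sign to 0.016 on the log2 scale.

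Reads can be shared among unigenes of 1 Trinity component, which can share sequence. Components were taken from the TR number of the identifier, and no sequence was compared. The components of the 4 P450 unigenes held 14 other unigenes, of which only TR65789|c0_g1 and TR65789|c0_g2 are given an annotation here, among the enzyme lists. All 14 but TR65789|c1_g4 are in the clustering table of the study. That table mixes P450, sugar conjugation and triterpene pathway unigenes, and which kind each of the others is was not looked up. TR54948|c1_g1 took 97.8% to 98.3% of the counts of its component outside leaf and TR63168|c1_g4 91.0% to 95.7%. TR64514|c1_g1 took 26.8% to 50.4% and TR65789|c1_g1 51.5% to 72.7%.

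TR64514|c1_g2 (1894 bp) had a summed FPKM of 611.96 over the libraries, beside 605.82 for its neighbour TR64514|c1_g1, and a flatter profile. Its FPKM was 222.30 for secRoot, 192.27 for rhizome_Y, 109.58 for rhizome_O, 87.19 for flower and 0.62 for leaf. Relative to it, TR64514|c1_g1 was lower in flower, at 0.498 (0.408 to 0.605), and in rhizome_Y, at 0.629 (0.562 to 0.702), but higher in rhizome_O, at 1.20 (1.07 to 1.34), and in secRoot, at 1.39 (1.31 to 1.48). Both were highest in secRoot, which for TR64514|c1_g2 was 1.16-fold (1.07 to 1.25) above rhizome_Y. The short unigene TR64514|c2_g1 (325 bp) ran from 72.56 in flower to 198.29 in secRoot, on 31 to 172 counts outside leaf.

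TR65789|c1_g2 was highest in secRoot, where its neighbour TR65789|c1_g1 was not. Its FPKM was 266.23 for secRoot, 143.29 for rhizome_O, 142.45 for rhizome_Y, 82.51 for flower and 0.89 for leaf, and its highest value was within 1 FPKM of the 266.51 that TR65789|c1_g1 had in rhizome_Y. The ratio of TR65789|c1_g1 to it was 1.49 (1.20 to 1.85) for flower, 1.87 (1.59 to 2.21) for rhizome_Y, 0.678 (0.571 to 0.806) for rhizome_O and 0.482 (0.432 to 0.539) for secRoot. Its 3 contigs differed too, with i1 (569 bp) at 220.52 in secRoot and i2 (881 bp) highest in flower at 56.71. When unigenes of at least 600 bp in the component were added together, the lead of rhizome_Y over secRoot shrank from 1.05 to 0.051 on the log2 scale. TR63168|c1_g2, of the component of TR63168|c1_g4, was highest in secRoot at 72.09, on 140 counts.

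**Figure D4:**
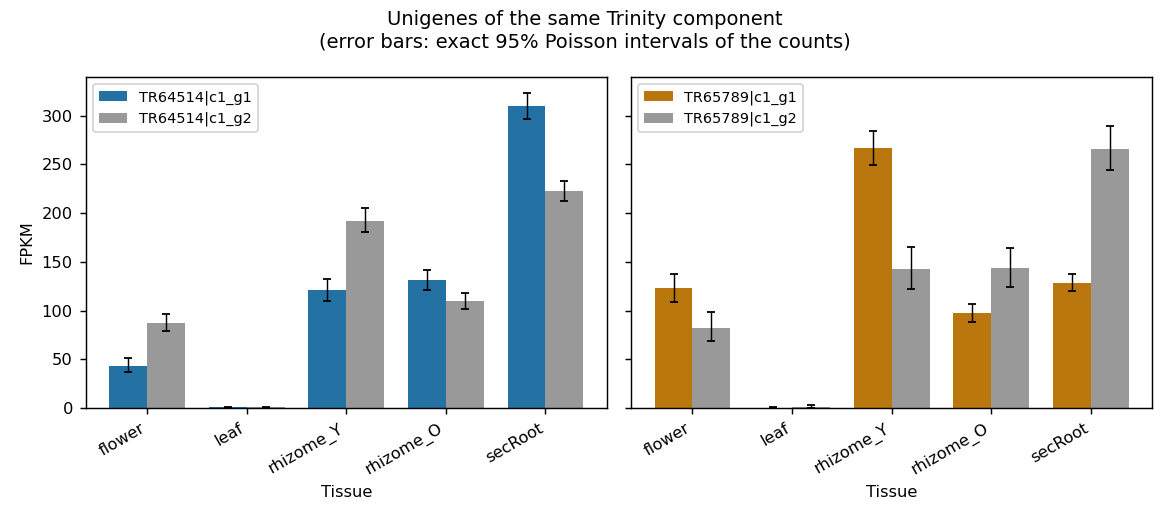
FPKM by tissue (1 library each) of TR64514|c1_g1 and TR65789|c1_g1 beside the most abundant other unigene of the same Trinity component, with exact 95% Poisson intervals of the counts. TR65789|c1_g1 is highest in rhizome_Y (266.51) and TR65789|c1_g2 in secRoot (266.23), while TR64514|c1_g1 and TR64514|c1_g2 are both highest in secRoot (309.92 and 222.30).

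The unigenes with the profiles most like each P450 unigene were sought among 286 unigenes with at least 200 counts in the clustering table of the study, which mixes P450, sugar conjugation and triterpene pathway unigenes. Likeness was the profile distance over the 5 libraries. For TR54948|c1_g1 these were TR39549|c0_g2 (0.0404) and TR39549|c0_g1 (0.0461), with 117.12 and 77.58 in flower. For TR64514|c1_g1 they were TR65452|c0_g1 (0.0362) and TR55424|c0_g1 (0.0807), with 95.02 and 99.48 in secRoot. For TR63168|c1_g4 they were TR68598|c2_g4 (0.0251), with 573.62 in rhizome_Y and 555.94 in secRoot, and TR57798|c0_g1 (0.0271). For TR65789|c1_g1 they were TR43621|c0_g1 (0.0688) and TR65577|c2_g1 (0.0720), with 131.46 and 819.51 in rhizome_Y. All of these were lower in leaf than in any other library.

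Other P450 enzymes were taken from the pathway table of the study. Over all 133897 unigenes above 0, leaf was the highest tissue for 40.0%, flower for 20.8%, rhizome_O for 14.2%, secRoot for 13.61% and rhizome_Y for 11.3%, and these shares are the background of the lists. Cinnamate 4-hydroxylase, the P450 of the entry to phenylpropanoids and lignin, had 11 unigenes, of which 5 were highest in secRoot and 6 in leaf. Its unigene with the highest FPKM, TR60300|c1_g1, had 590.40 for secRoot, 475.80 for rhizome_O, 429.33 for rhizome_Y and 63.02 for flower. It was thus above all 4 P450 unigenes in the underground libraries. The list of 4-hydroxyphenylacetaldehyde oxime monooxygenase, known from cyanogenic glucoside synthesis in sorghum, had 14 unigenes, of which 6 had flower as their highest tissue, 5 had leaf, 2 rhizome_Y and 1 rhizome_O. Its unigene with the highest FPKM in any library was TR65789|c0_g2 (259 bp), from the component of TR65789|c1_g1. It had 252.41 for rhizome_Y on 79 counts, 86.58 for secRoot, 56.08 for rhizome_O and 0 for flower and leaf. TR65789|c0_g1 (253 bp), of the same list and component, had 236.47 for rhizome_Y, 118.80 for secRoot and 7.86 for flower. It had 158 counts in all, against 147 for TR65789|c0_g2. The lists of N-methylcoclaurine monooxygenase and protopine monooxygenase, P450 enzymes of alkaloid synthesis in other plants, had 3 unigenes each. Their unigenes with the highest FPKM had it in leaf, TR63856|c1_g2 at 276.68 and TR68050|c2_g2 at 71.85, the latter on 28 counts.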

How the data were processed

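Poly(A) RNA of 5 tissues was made into strand-specific libraries and sequenced as paired ends. Per the study's methods and the submitters' processing notes, the authors trimmed reads with Trimmomatic, assembled all libraries together with Trinity, used Bowtie for alignment, and took abundances from RSEM. The deposited files give, per contig and library, expected counts, FPKM, TPM, the percent of a unigene that a contig takes, and other values such as lengths. All expected counts were whole numbers (0 were not). A merged table of the series was not used. Contig values were summed into unigenes in Python 3.11.15 with scipy 1.17.1. Intervals of levels are exact Poisson, and those of ratios are exact conditional binomial (Clopper-Pearson). Both are exact for the counts and were multiplied by the FPKM per count, taken as fixed. On simulated Poisson counts for rhizome_Y and secRoot (5617 unigenes), 95.5% of intervals held the true ratio. The draws had no contigs and no division of reads. They therefore check the calculation for counts and not the intervals of FPKM summed over contigs. TMM factors came from edgeR 4.0.16 (R 4.3.3). Depth was 2403221 to 4920387 counts, so 3 counts on 1 kb equal an FPKM of 0.610 to 1.25. Unigenes named are the 4 members, beta-amyrin synthase, both CYP716A unigenes that the study names, component neighbours with at least 100 counts in 1 library, the 2 nearest profiles of each member and the highest unigene of each P450 list. TR65789|c0_g1 was named after its values were seen. The members, lists and comparisons were chosen with earlier results of these data known. Alternatives were TPM, CPM, counts per longest contig, the contig of most counts, other scalings, other count minimums and components added together. No sequence was used here.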

Additional observations from a re-analysis of the deposited data

How the results depend on the processing

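No paired analysis was possible because each tissue had 1 library. Alternatives were compared on the log2 scale and could be set only against counting error, and the cause of a change was not tested. Between tissues, the values that moved beyond counting error were as follows. With the contig of most counts alone, TR54948|c1_g1 flower over rhizome_Y was 1.15, TR63168|c1_g4 secRoot over rhizome_Y was -0.29, TR54948|c1_g1 rhizome_Y over secRoot was 1.76, TR54948|c1_g1 rhizome_Y over rhizome_O was 0.12, TR63168|c1_g4 rhizome_Y over secRoot was 0.29 and TR65789|c1_g1 flower over rhizome_Y was -3.60. With counts per length of the longest contig, TR63168|c1_g4 secRoot over rhizome_Y was -0.016. With CPM, TR63168|c1_g4 secRoot over rhizome_Y was -0.016, TR63168|c1_g4 rhizome_Y over secRoot was 0.016 and TR65789|c1_g1 flower over rhizome_Y was -1.40. With TMM over all libraries, TR54948|c1_g1 flower over rhizome_Y was -0.37, TR64514|c1_g1 secRoot over rhizome_O was -1.14, TR63168|c1_g4 secRoot over rhizome_Y was 0.46, TR65789|c1_g1 rhizome_Y over secRoot was 0.71, TR54948|c1_g1 rhizome_Y over secRoot was 1.90, TR54948|c1_g1 rhizome_Y over rhizome_O was -2.29, TR64514|c1_g1 rhizome_Y over secRoot was -1.70, TR64514|c1_g1 rhizome_Y over rhizome_O was -2.84, TR64514|c1_g1 flower over rhizome_Y was -2.32, TR63168|c1_g4 rhizome_Y over secRoot was -0.46, TR63168|c1_g4 rhizome_Y over rhizome_O was -2.66, TR63168|c1_g4 flower over rhizome_Y was -2.35, TR65789|c1_g1 rhizome_Y over rhizome_O was -1.26 and TR65789|c1_g1 flower over rhizome_Y was -1.97. With TMM without leaf (chosen after seeing the data), TR54948|c1_g1 flower over rhizome_Y was 0.34, TR54948|c1_g1 rhizome_Y over rhizome_O was 0.56 and TR63168|c1_g4 rhizome_Y over rhizome_O was 0.19. With all component unigenes added, TR64514|c1_g1 secRoot over rhizome_O was 1.08, TR63168|c1_g4 secRoot over rhizome_Y was 0.23 and TR65789|c1_g1 rhizome_Y over secRoot was 0.45. With component unigenes of at least 600 bp added (chosen after seeing the data), TR63168|c1_g4 secRoot over rhizome_Y was 0.34 and TR65789|c1_g1 rhizome_Y over secRoot was 0.051. 

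Against beta-amyrin synthase, in the order flower, rhizome_Y, rhizome_O and secRoot where all 4 tissues are given, the values that moved were as follows. With the contig of most counts alone they were 1.63, -2.70, -2.34 and -2.36 for TR54948|c1_g1, 0.36, -1.26, -0.72 and 0.55 for TR63168|c1_g4 and -2.36, -1.95, -2.95 and -0.96 for TR65789|c1_g1. With counts per length of the longest contig they were 2.704, -0.97, -0.89 and -1.10 for TR54948|c1_g1, 0.90, -0.78, -0.33 and 1.30 for TR63168|c1_g4 and 1.001, -0.79, -1.75 and 0.26 for TR65789|c1_g1. With CPM they were 2.19, -1.48, -1.41 and -1.61 for TR54948|c1_g1, -0.92, -2.64, -2.03 and 0.82 for TR64514|c1_g1, 0.38, -1.29, -0.85 and 0.79 for TR63168|c1_g4 and 0.13, -1.66, -2.63 and -0.61 for TR65789|c1_g1. With all component unigenes added they were 3.38, -0.28, -0.20 and -0.48 for TR54948|c1_g1, 2.20, 0.23, 0.27 and 2.95 for TR64514|c1_g1, 1.497, -0.12, 0.30 and 2.21 for TR63168|c1_g4 and 2.42, 1.25, 0.45 and 2.90 for TR65789|c1_g1. With component unigenes of at least 600 bp added they were 1.56, -0.37, -0.26 and 2.49 for TR64514|c1_g1, 0.038 and 1.99 for TR63168|c1_g4 in rhizome_O and secRoot and 2.21, 0.018, -0.26 and 2.06 for TR65789|c1_g1. 

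The counts of unigenes past 2-fold moved with the minimum count, which changes how many unigenes are tested, and with TMM over all libraries. In the order rhizome_Y above secRoot and the reverse, rhizome_Y above rhizome_O and the reverse, and flower above rhizome_Y and the reverse, they were 572, 901, 421, 341, 1059 and 1170 as reported, 1757, 2486, 1302, 1557, 3344 and 2811 at a minimum of 20 counts, 143, 289, 97, 56, 230 and 366 at 500 and 369, 1590, 32, 6848, 612 and 3076 with TMM over all libraries. TPM and median-of-ratios scaling moved no value of a P450 unigene beyond counting error, and neither a contig minimum of 20 counts nor leaving out leaf moved a count by over 1.5 times. The leaf values of the P450 unigenes were the least certain, resting on 1 to 11 counts in a library of 4614642 counts.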
